A study of Mus musculus with 18 samples.

Results

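The antioxidant and glutathione defence genes examined here are 38 mouse genes that make and recycle glutathione, break down superoxide and peroxides, conjugate reactive compounds to glutathione, or control the expression of such genes. A member was measured where the array annotation gave a probe set that gene as its only symbol. By that rule 35 of the 38 were measured, among 18781 genes with such a probe set, and Prdx5, Prdx6 and Gstm5 were not analysed here. RNA had been taken from skeletal muscle, heart muscle and hippocampus of C57BL/6 mice, in 6 groups of 3 arrays each: transgenic skeletal muscle, transgenic heart and transgenic hippocampus, and the same 3 tissues of wild type littermates. The transgenic mice, written +/+ in the sample titles, carried TN-XXL, a genetically encoded calcium indicator built from cyan and yellow fluorescent proteins and a troponin C domain. The sources used here do not give the promoter that drives the transgene, its insertion site, or the age and sex of the mice.

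Glutathione is a tripeptide that cells hold as their main soluble thiol. Its synthesis begins with glutamate-cysteine ligase, and glutathione reductase returns its oxidised form to the reduced form. Superoxide dismutases turn superoxide into hydrogen peroxide, which catalase, glutathione peroxidases and peroxiredoxins remove, the peroxiredoxins at the expense of thioredoxin. The transcription factor NRF2, encoded by Nfe2l2 and held in check by Keap1, drives many of these genes through a short promoter sequence, the antioxidant response element. Striated muscle produces oxidants during contraction, and in brain much of the glutathione supply rests on astrocytes.

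Levels are the log2 values that the authors deposited for each probe set, and a genotype difference is the transgenic mean less the wild type mean, in log2 units, with the SE of the fit. A member is called where limma's Benjamini-Hochberg adjusted p over all 35382 probe sets is under 0.05. Over all probe sets, 2 arrays of a group correlated at 0.982 to 0.993. The skeletal muscle markers (8 of 8 measured) averaged 11.3 to 11.4 in transgenic and 11.3 to 11.4 in wild type muscle arrays, the heart markers (7 of 8) 11.24 to 11.34 in transgenic and 11.09 to 11.18 in wild type heart arrays, without overlap, and the neuron markers (7 of 8) 10.6 to 10.7 in transgenic and 10.6 to 10.7 in wild type hippocampus arrays. Whether each array stands for its own animal is not said in the labels. The p-values therefore cover the spread between arrays alone, which may be technical, and the small number of arrays limits the precision.

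The promoters of several members that were lower in transgenic muscle hold the antioxidant response element core. The motif searched was TGACNNNGC on both strands, in the RefSeq windows (build GRCm38.p6). A window ran from 250 bases before to 50 bases after an annotated start, of which a gene can have several. Of the 32 members with a window, 8 held it, among them Gstm5, which was not measured. Counted by window, it lay in 8 of the members' 39 windows (20.5%) and in 12.4% of all 32851 windows. The windows of Gclm, Prdx1, Srxn1, Txnrd1 and Mgst1 are shown because these 5 are members that were lower in transgenic muscle and hold the core. Those of Gstm2 and Gpx1 are shown for members called in the same tissue without it. Capitals mark the core, which in each of the 5 lies on the opposite strand and so reads GCNNNGTCA.
Gclm, chr3:122245307-122245606, plus strand: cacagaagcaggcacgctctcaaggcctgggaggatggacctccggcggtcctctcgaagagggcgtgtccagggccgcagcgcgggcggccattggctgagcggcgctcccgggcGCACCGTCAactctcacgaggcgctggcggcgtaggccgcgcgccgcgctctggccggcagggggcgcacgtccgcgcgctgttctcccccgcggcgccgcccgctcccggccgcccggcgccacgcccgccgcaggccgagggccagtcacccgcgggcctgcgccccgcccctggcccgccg
Prdx1, chr4:116685349-116685648, plus strand: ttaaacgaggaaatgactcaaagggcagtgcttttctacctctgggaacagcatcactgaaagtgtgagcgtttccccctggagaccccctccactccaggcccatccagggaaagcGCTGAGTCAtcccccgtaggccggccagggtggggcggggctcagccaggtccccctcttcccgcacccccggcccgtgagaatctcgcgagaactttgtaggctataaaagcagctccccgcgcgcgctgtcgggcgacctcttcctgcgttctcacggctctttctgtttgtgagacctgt
Srxn1, chr2:152105274-152105573, plus strand: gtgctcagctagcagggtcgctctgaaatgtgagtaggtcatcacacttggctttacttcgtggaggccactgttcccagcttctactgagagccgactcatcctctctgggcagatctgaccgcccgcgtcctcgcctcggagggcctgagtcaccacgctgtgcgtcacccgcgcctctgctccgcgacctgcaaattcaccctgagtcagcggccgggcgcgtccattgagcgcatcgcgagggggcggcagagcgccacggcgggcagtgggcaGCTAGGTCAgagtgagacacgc
Txnrd1, chr10:82858956-82859255, plus strand: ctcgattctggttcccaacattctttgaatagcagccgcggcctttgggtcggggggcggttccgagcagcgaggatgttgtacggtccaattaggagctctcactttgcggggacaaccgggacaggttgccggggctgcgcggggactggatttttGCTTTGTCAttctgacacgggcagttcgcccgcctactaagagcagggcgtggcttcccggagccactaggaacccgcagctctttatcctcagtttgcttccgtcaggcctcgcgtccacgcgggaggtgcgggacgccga
Mgst1, chr6:138140277-138140576, plus strand: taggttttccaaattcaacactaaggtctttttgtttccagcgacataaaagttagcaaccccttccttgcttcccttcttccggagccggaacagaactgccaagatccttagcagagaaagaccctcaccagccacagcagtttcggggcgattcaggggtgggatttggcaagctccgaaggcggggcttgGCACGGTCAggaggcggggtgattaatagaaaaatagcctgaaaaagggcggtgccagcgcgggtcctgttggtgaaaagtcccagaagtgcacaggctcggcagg
Gstm2, chr3:107986371-107986670, minus strand: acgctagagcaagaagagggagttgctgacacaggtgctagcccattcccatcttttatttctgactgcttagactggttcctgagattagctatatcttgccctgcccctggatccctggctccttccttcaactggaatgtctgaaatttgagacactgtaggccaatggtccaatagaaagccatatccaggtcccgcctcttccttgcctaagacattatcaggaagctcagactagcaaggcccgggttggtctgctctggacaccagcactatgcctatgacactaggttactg
Gpx1, chr9:108338830-108339129, plus strand: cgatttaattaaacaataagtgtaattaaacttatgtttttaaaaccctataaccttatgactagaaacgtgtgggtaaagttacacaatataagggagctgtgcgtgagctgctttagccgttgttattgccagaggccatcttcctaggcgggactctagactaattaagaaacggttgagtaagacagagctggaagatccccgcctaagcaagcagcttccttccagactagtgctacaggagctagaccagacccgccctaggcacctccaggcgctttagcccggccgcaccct

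Positions are counted from the start on which the window shown is set, which need not be the gene's outermost start. The core began 134 bases before that start in Gclm, 133 before it in Prdx1 and 92 before it in Txnrd1. In Mgst1 it began 56 bases before the start, and in Srxn1 28 bases after it. Of the 8 members lower in transgenic muscle, 5 held the core (62.5%), against 0 of the 3 higher members and 2 of the 19 members with a window that were not called there (10.5%). The other 2 were Nfe2l2 and Sod1. Of the 5 lower members with the core, only Gclm stayed called when the muscle arrays were fitted alone. The lower members without it, Gstm1, Gstm2 and Nqo1, all stayed called. The calls of Prdx1, Srxn1 and Txnrd1 were also lost with single muscle arrays left out. Txnrd1 has 3 windows and Mgst1 has 2, and in each gene 1 of them held the core. Gstm1, Gstm2 and Nqo1 fell in muscle with no match in these windows, and no match says only that these letters are not in this stretch. The E-box CACGTG, searched in the same way, was found in 1 member, Prdx4, and in 7.15% of all windows. A match is a description of the sequence and not evidence that a factor binds there.

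**Figure D1:**
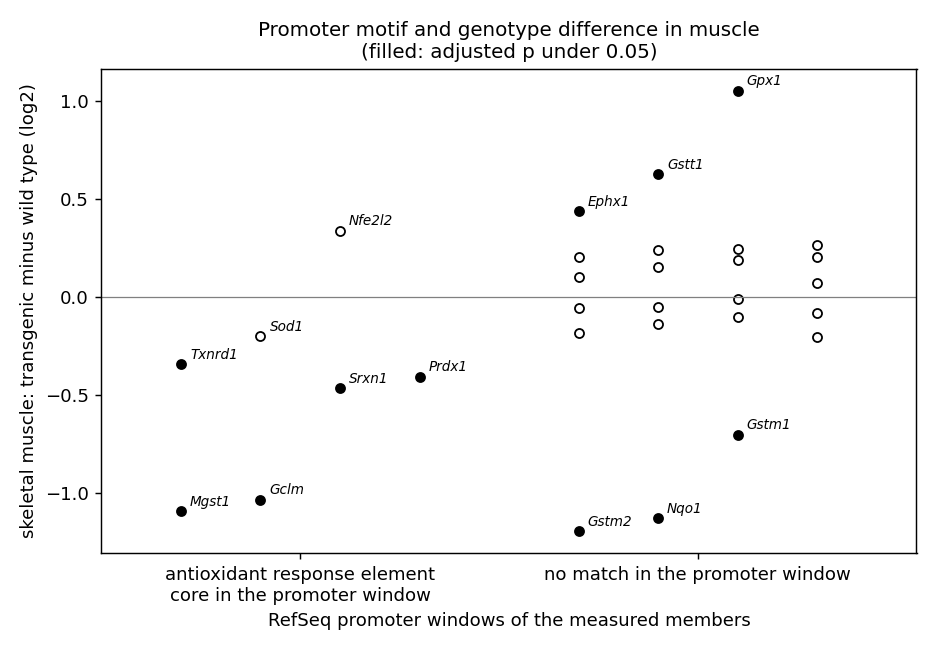
Genotype difference in skeletal muscle (log2, transgenic minus wild type, y axis) of the 30 measured members that have a promoter window, set apart by whether the antioxidant response element core lies in it (x axis). Filled points passed at an adjusted p under 0.05. Of the 7 members with the core, 5 were called lower, and the 3 called higher all lack it. Of those 5, only Gclm stayed called when the muscle arrays were fitted alone.

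In skeletal muscle, transgenic mice had less mRNA of the glutathione synthesis gene Gclm, of the conjugating genes Gstm1, Gstm2 and Mgst1 and of the quinone reductase gene Nqo1, and more of the peroxidase gene Gpx1. The differences of Gclm, Gstm2, Nqo1, Mgst1 and Gpx1 were each slightly more than 1 log2 unit. In all, 11 of 35 members were called (31.4%), where 8.15% of all probe sets were called. The members were chosen with earlier results of these data known, so such shares, here and below, are descriptions and not tests. They were 8 lower and 3 higher members, beside 4.3% of all probe sets called lower and 3.86% called higher. All 35 members were among the brighter probe sets, whose highest group mean in any tissue passes a floor of 2.86. Of the 13525 genes that pass the same floor 15.7% were called. The floor does not match brightness in muscle, since Slc7a11 (1.61), Prdx4 (2.00) and Gpx7 (2.45) averaged below it in wild type muscle. The 2 genotypes' arrays did not overlap for 13 members that were lower and 9 that were higher, against 10.3% and 11.6% of all probe sets. The median member differed by −0.06, beside 0.02 over all probe sets. In whole tissue, fewer cells of a type and less RNA per cell cannot be told apart.

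The regulators stood on the higher side. Nfe2l2, which encodes NRF2, had levels of 7.27, 7.05 and 7.05 in transgenic muscle, against 6.81, 6.67 and 6.88 in wild type muscle. Every transgenic array lay above every wild type array, and the difference of 0.34 ± 0.10 did not pass (adjusted p = 0.0528). Keap1, the adaptor that marks NRF2 for degradation, had 6.39, 6.35 and 6.55 in transgenic muscle, against 6.12, 6.42 and 6.15 in wild type muscle, with overlapping groups (0.20 ± 0.10, adjusted p = 0.315). Nfe2l2 passed without the dimmer probe sets, after quantile normalization and with an intensity trend.

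Of the glutathione supply genes, the modifier subunit of glutamate-cysteine ligase changed. Gclm stood at 4.80, 4.87 and 4.73 in transgenic muscle, against 5.87, 5.84 and 5.80 in wild type muscle. The groups lay far apart beside their spread, with means of 4.80 ± 0.07 in transgenic muscle and 5.84 ± 0.03 in wild type muscle (SD, n = 3 each), and Gclm fell by 1.04 ± 0.07 (2.05-fold, adjusted p = 4.57e-07). Gclc, the catalytic subunit, had 5.49, 5.18 and 5.53 in transgenic muscle, against 5.91, 5.75 and 5.66 in wild type muscle. These groups did not overlap either, but the difference of −0.37 ± 0.12 did not pass (adjusted p = 0.0634). Gclc passed without the dimmer probe sets (adjusted p = 0.0413) and with an intensity trend (0.048). The reductase gene Gsr (−0.29 ± 0.10, adjusted p = 0.113), the synthetase gene Gss (0.20 ± 0.10, adjusted p = 0.277) and the cystine transporter gene Slc7a11 (0.15 ± 0.12, adjusted p = 0.567) did not pass. Slc7a11 lay below the array median in muscle.

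Conjugating genes held the widest range of differences. Gstm2, a mu class glutathione transferase, had 5.45, 5.45 and 5.33 in transgenic muscle, against 6.65, 6.44 and 6.74 in wild type muscle, and fell by 1.20 ± 0.12 (2.29-fold, adjusted p = 1.12e-05). Its neighbour on chromosome 3, Gstm1, had 7.52, 7.26 and 7.47 in transgenic muscle, against 7.99, 8.18 and 8.20 in wild type muscle, and fell by 0.71 ± 0.11 (adjusted p = 5.67e-04). Mu class genes are close in sequence, and how far a probe set of either reads the other was not tested. Mgst1, a membrane-bound transferase of the endoplasmic reticulum and the outer mitochondrial membrane, had 4.54, 3.86 and 4.38 in transgenic muscle, against 5.54, 5.42 and 5.10 in wild type muscle (−1.09 ± 0.16, adjusted p = 3.74e-04). All 3 of these genes had separate groups, Mgst1 with the widest spread.

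Gstt1, a theta class transferase, moved the other way, at 5.50, 5.57 and 4.99 in transgenic muscle, against 4.72, 4.57 and 4.89 in wild type muscle. The groups were apart, with transgenic array 3 near the highest wild type array, and the difference was 0.63 ± 0.14 (adjusted p = 0.0126). Leaving out transgenic array 1 (adjusted p = 0.0539) or 2 (0.0623) or wild type array 2 (0.0615) ended this call. The remaining transferases Gsta4, Gstp1, Gstk1 and Mgst3 differed by −0.18 to 0.24 and did not pass.

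Nqo1, which reduces quinones directly to hydroquinones, had 3.21, 3.73 and 3.73 in transgenic muscle, against 4.92, 4.45 and 4.70 in wild type muscle. The groups were well apart (−1.13 ± 0.15, 2.19-fold, adjusted p = 1.46e-04). Ephx1, the microsomal epoxide hydrolase, had 5.80, 5.80 and 5.93 in transgenic muscle, against 5.39, 5.24 and 5.59 in wild type muscle (0.44 ± 0.11, adjusted p = 0.0244). That call was lost when transgenic array 3 (adjusted p = 0.0917) or wild type array 1 (0.0712) or 2 (0.112) was left out. Hmox1, the inducible haem oxygenase, stood at 3.66, 3.66 and 3.65 in transgenic muscle, above the 3.53, 3.28 and 3.34 of wild type muscle, and did not pass (0.27 ± 0.20, adjusted p = 0.544).

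Among the peroxidases, Gpx1, the abundant cytosolic glutathione peroxidase, had 7.92, 7.77 and 7.74 in transgenic muscle, against 6.84, 6.61 and 6.82 in wild type muscle. It rose by 1.05 ± 0.12 (2.08-fold, adjusted p = 4.29e-05), with every transgenic array above every wild type array. The secreted Gpx3 (0.25 ± 0.21), the lipid hydroperoxidase Gpx4 (−0.05 ± 0.07) and Gpx7 (0.10 ± 0.11) did not pass.

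In the thioredoxin system, 3 of 9 members were called lower, where 4.3% of all probe sets were. That share is lower than among brighter probe sets, since 1756 of 23283 were called lower in the fit without the dimmer ones. Prdx1, a cytosolic peroxiredoxin, had 6.65, 6.47 and 6.43 in transgenic muscle, against 6.93, 6.91 and 6.93 in wild type muscle (−0.41 ± 0.10, adjusted p = 0.0208), and its other probe set was lower too (−0.73 ± 0.17, adjusted p = 0.0137). Txnrd1, the cytosolic thioredoxin reductase, had 5.83, 6.12 and 5.90 in transgenic muscle, against 6.32, 6.27 and 6.29 in wild type muscle (−0.34 ± 0.09, adjusted p = 0.0236). Both pairs of groups were apart, with little spread in wild type. Srxn1, sulfiredoxin, which repairs over-oxidised peroxiredoxins, ranged from 4.98 to 5.41 in transgenic and from 5.45 to 5.74 in wild type muscle (−0.47 ± 0.13, adjusted p = 0.0316). Txn1, thioredoxin itself, differed by 0.27 ± 0.08 (adjusted p = 0.061), which is not a call but passed without the dimmer probe sets and with an intensity trend, and the mitochondrial genes Txn2 (−0.21 ± 0.09), Txnrd2 (−0.14 ± 0.10) and Prdx3 (−0.08 ± 0.09) did not pass either.

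Each of these 3 calls was lost with any 1 of several muscle arrays left out, and that of Txnrd1 also after quantile normalization (adjusted p = 0.0642). The differences stayed negative as muscle arrays were left out, at −0.47 to −0.36 for Prdx1, −0.43 to −0.28 for Txnrd1 and −0.59 to −0.38 for Srxn1. The Prdx1 call was lost with any of transgenic arrays 2 (adjusted p = 0.069) and 3 (0.0839) and wild type arrays 1 (0.0599), 2 (0.0533) and 3 (0.0596) left out. For Txnrd1 the arrays were transgenic 1 (0.0964) and 3 (0.0823) and wild type 1 (0.074), 2 (0.0565) and 3 (0.0586). For Srxn1 they were transgenic 2 (0.132) and 3 (0.102) and wild type 2 (0.106) and 3 (0.118). When the 6 muscle arrays were fitted alone, Gclm, Gstm1, Gstm2, Nqo1 and Gpx1 passed, and Mgst1 (adjusted p = 0.0537), Prdx1 (0.0931), Txnrd1 (0.179), Srxn1 (0.19), Gstt1 (0.153) and Ephx1 (0.131) did not.

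None of the dismutases or catalase was called in muscle. Sod1, the copper and zinc enzyme of the cytosol, stood at 10.70, 10.71 and 10.85 in transgenic muscle and at 11.08, 10.86 and 10.93 in wild type muscle (−0.20 ± 0.09, adjusted p = 0.216), with groups that nearly touch. Its other probe set differed by −0.06 ± 0.12 (adjusted p = 0.855), with overlapping groups. The mitochondrial Sod2 (−0.06 ± 0.07), the extracellular Sod3 (0.40 ± 0.15, adjusted p = 0.147) and Cat (0.19 ± 0.09) did not pass.

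**Figure D2:**
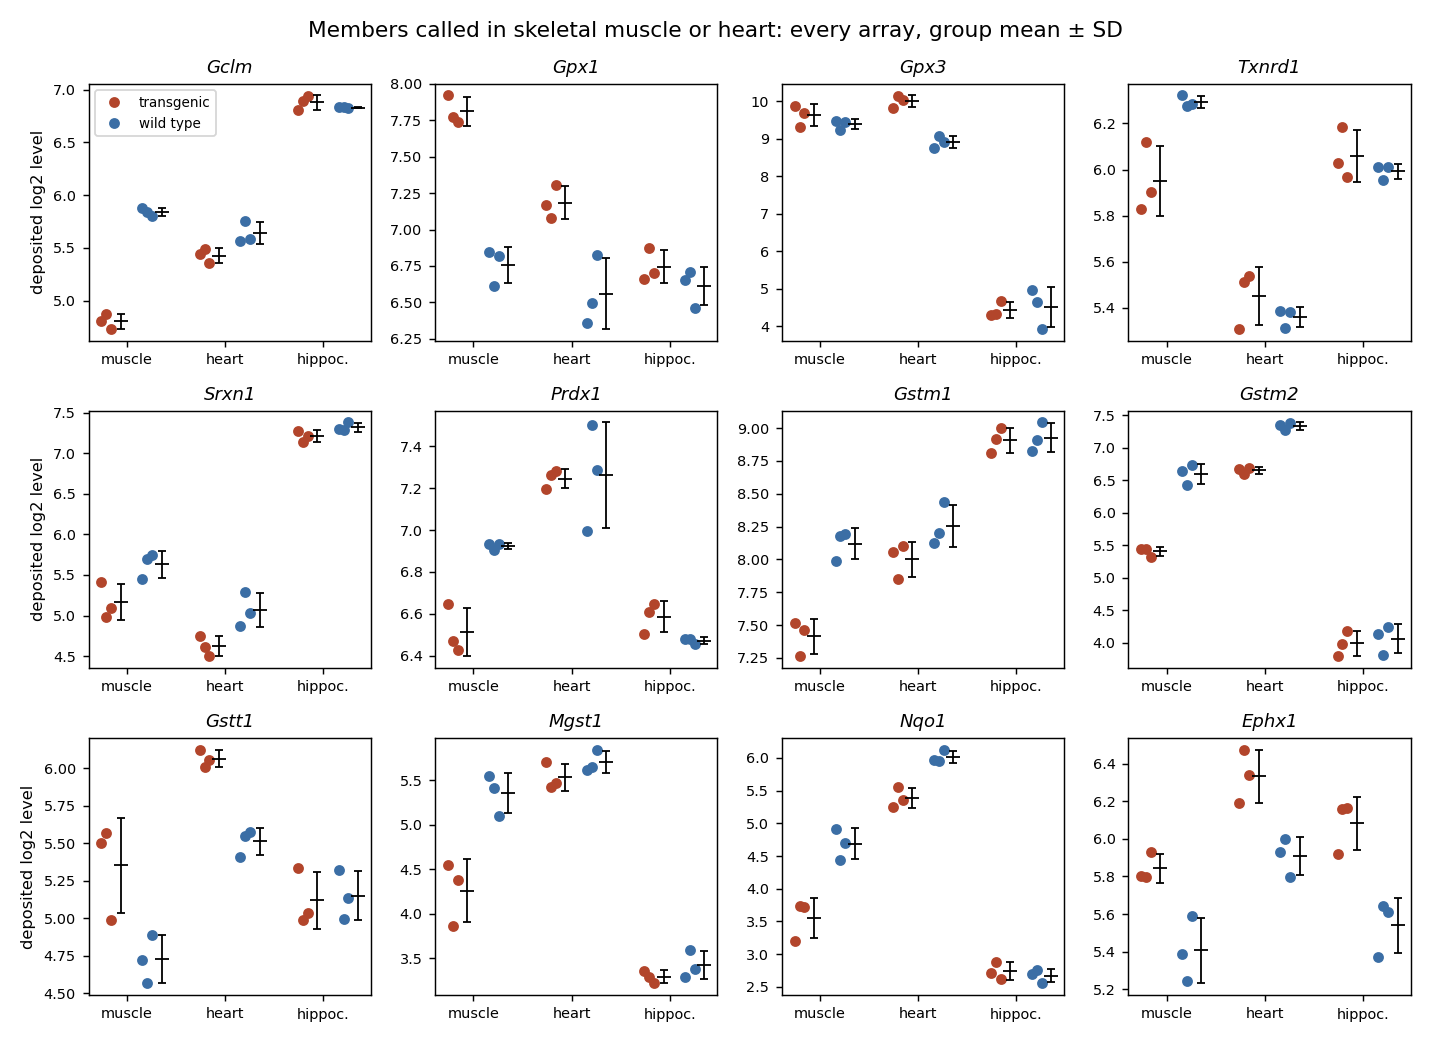
Deposited log2 level (y axis) on every array for the 12 members called in skeletal muscle or heart, with transgenic arrays left of wild type arrays within each tissue (x axis) and the group mean ± SD beside the points (n = 3). Gclm, Gstm1, Gstm2, Nqo1 and Mgst1 are lower and Gpx1 is higher in all 3 transgenic muscle arrays, while the hippocampus groups overlap for all 12 but Prdx1, Srxn1 and Ephx1.

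Markers listed for other tissues and cell types differed between the muscle groups as well, and which cells carried these differences was not tested. Of the heart markers (7 measured) Myl2 and Actc1 were called higher in muscle, and 1 neuron marker (Camk2a, 7 measured) and 1 astrocyte marker (Aldh1l1, 6 measured) were called lower. Endothelial markers (8 of 8 measured) were called lower in 4 cases, and their mean level ran from 5.79 to 6.22 in transgenic and from 6.46 to 6.56 in wild type muscle. Of the adipocyte markers (7 of 8 measured) Adipoq was called higher and Lpl lower, and their mean level ran from 6.12 to 6.38 in transgenic and from 5.51 to 6.04 in wild type muscle. Of the macrophage markers (8 of 8) Cd68 was called higher, with a mean of 3.80 to 4.09 in transgenic and 3.53 to 3.89 in wild type muscle. Of the fibroblast markers (8 measured) limma called 0 (2 had an unadjusted p under 0.05), and of the 3 erythroid markers measured it called 0 (0 had an unadjusted p under 0.05), and 2 of those 3 lay below the array median in wild type muscle. The log2 values have no zero level. In wild type muscle 2 of the macrophage markers and none of the endothelial, adipocyte and fibroblast markers lay below the array median. The part of these marker differences in those of the members was not tested.

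In heart, Gpx1 and Gpx3 were higher and Gstm2 and Nqo1 lower in transgenic mice, 4 of 35 members (11.4%), where 3.19% of all probe sets and 6.05% of the brighter genes were called. Over all probe sets 1.57% were called higher and 1.62% lower, against 2 members each way. The median member differed by 0.01, beside 0.00309 over all probe sets. The groups did not overlap for 7 members that were higher and 7 that were lower, against 9.19% and 9.35% of all probe sets. Gstm2, Nqo1 and Gpx1 were called in both muscle and heart in the same direction, which is 27.3% of the muscle calls and 75.0% of the heart calls. The share of all probe sets called in both tissues was not counted, so these percentages have no background beside them.

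Gpx3, the glutathione peroxidase that cells secrete into plasma, had 9.82, 10.13 and 10.03 in transgenic heart, against 8.75, 9.08 and 8.92 in wild type heart (1.08 ± 0.21, 2.12-fold, adjusted p = 0.0122). Gpx1 had 7.17, 7.08 and 7.31 in transgenic heart, against 6.36, 6.49 and 6.83 in wild type heart (0.63 ± 0.12, adjusted p = 0.0098). Both pairs of groups were apart, that of Gpx1 with wild type array 3 closest to the transgenic arrays. The Gpx3 call was lost without transgenic array 2 (adjusted p = 0.0508) or wild type array 1 (0.0544), and the Gpx1 call without transgenic array 3 (0.0508).

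Gstm2 had 6.68, 6.60 and 6.69 in transgenic heart, against 7.36, 7.27 and 7.38 in wild type heart, with a spread that was small beside the difference of −0.68 ± 0.12 (1.6-fold, adjusted p = 0.00498). Its call held without each heart array in turn. Nqo1 had 5.25, 5.56 and 5.35 in transgenic heart, against 5.96, 5.96 and 6.13 in wild type heart (−0.63 ± 0.15, adjusted p = 0.031). Leaving out transgenic array 1 (0.0969) or 3 (0.0981), or any of wild type arrays 1 (0.0717), 2 (0.065) and 3 (0.104), ended that call. When the 6 heart arrays were fitted alone none of the 4 passed limma's test (Gstm2 adjusted p = 0.0609, Gpx3 0.0556, Nqo1 0.111, Gpx1 0.172), and 8 members had an unadjusted p under 0.05.

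Several members stood just outside the threshold in heart. Gstt1 differed by 0.55 ± 0.14 (adjusted p = 0.0532), Ephx1 by 0.42 ± 0.11 (adjusted p = 0.0553) and Srxn1 by −0.44 ± 0.13 (adjusted p = 0.0747), each with groups that did not overlap. Gstt1 and Ephx1 passed without the dimmer probe sets, after quantile normalization and with an intensity trend, and Gstt1 also with array medians subtracted. Without transgenic heart array 1, Ephx1 and Hmox1 passed. Gclm, at 5.44, 5.49 and 5.35 in transgenic heart and 5.57, 5.76 and 5.59 in wild type heart, did not overlap but did not pass (−0.21 ± 0.07, adjusted p = 0.147). Gclc had 5.23, 5.57 and 5.26 in transgenic heart, against 5.67, 5.52 and 5.34 in wild type heart, with overlap (−0.16 ± 0.12, adjusted p = 0.605).

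The regulators did not pass in heart. Nfe2l2 had 7.09, 7.27 and 7.06 in transgenic heart, just above the 6.82, 7.06 and 7.01 of wild type heart (0.17 ± 0.10, adjusted p = 0.472). Keap1 had 5.73, 5.86 and 5.92 in transgenic heart, against 5.69, 5.65 and 5.89 in wild type heart, and the groups overlapped (0.09 ± 0.10, adjusted p = 0.781). The remaining members ran from Gstm1 at −0.25 to Hmox1 at 0.46 without a call.

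Of the 7 heart markers measured, Nppa was called higher (1.36 ± 0.15, adjusted p = 1.87e-04) and Ryr2 lower (−0.38 ± 0.07, adjusted p = 0.00971) in heart. The skeletal muscle marker Acta1 (1 of 8) and the astrocyte marker Gja1 (1 of 6), a connexin that heart muscle also expresses, were called lower. Endothelial markers were called lower in heart in 2 of 8 cases, with a mean level of 7.0 to 7.30 in transgenic and 7.53 to 7.59 in wild type arrays. Of the macrophage, fibroblast, adipocyte and erythroid markers limma called 0 in heart (1 of each list had an unadjusted p under 0.05), and 2 of the 3 erythroid markers lay below the array median in wild type heart. The part of these markers in the members' differences was not tested.

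**Figure D3:**
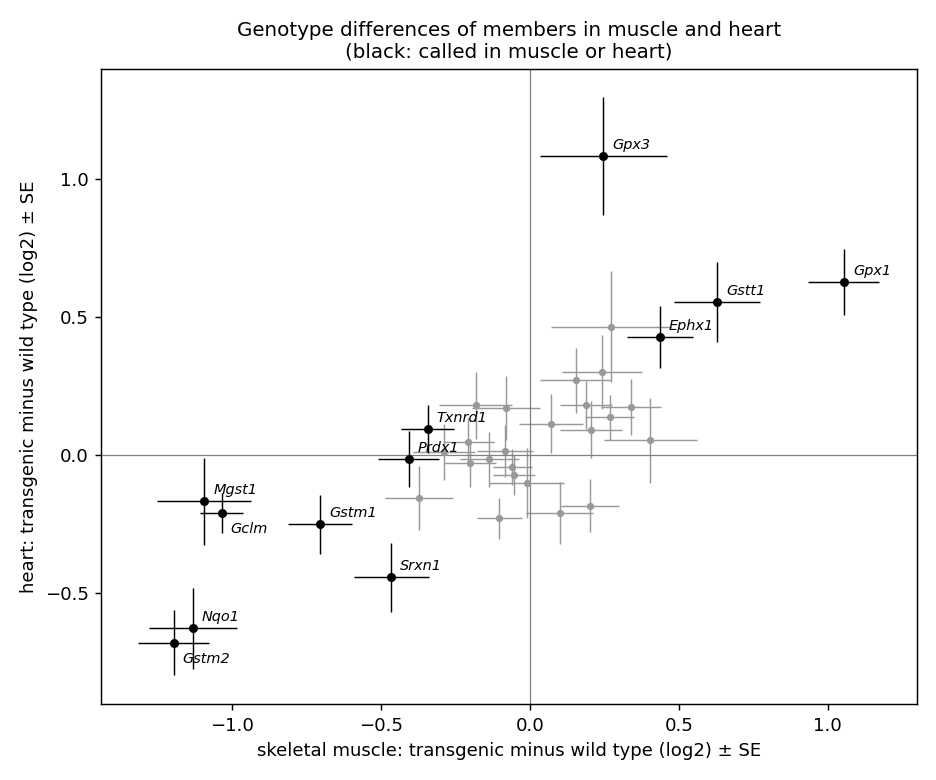
Genotype difference (log2, transgenic minus wild type, ± SE) in skeletal muscle (x axis) against that in heart (y axis) for the 35 measured members, with those called in either tissue in black and named. Gstm2 and Nqo1 lie low and Gpx1 lies high in both tissues, Gclm and Mgst1 lie low mainly along the muscle axis and Gpx3 lies high mainly along the heart axis.

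In hippocampus 0 of 35 members were called by limma, as were 0.0% of all probe sets, and 4 members had an unadjusted p under 0.05. Ephx1 had 5.92, 6.16 and 6.17 in transgenic hippocampus, against 5.37, 5.64 and 5.61 in wild type hippocampus. Its groups were apart, and the difference of 0.54 ± 0.11 was the highest of the members in this tissue but did not pass (adjusted p = 0.441). Gstk1, a transferase of mitochondria and peroxisomes, had 6.39, 6.56 and 6.62 in transgenic hippocampus, against 6.76, 6.76 and 6.77 in wild type hippocampus (−0.24 ± 0.08, adjusted p = 0.761). Sod2 had 8.92, 9.06 and 9.05 in transgenic hippocampus, against 8.88, 8.87 and 8.82 in wild type hippocampus (0.16 ± 0.07, adjusted p = 0.968). The groups did not overlap for 3 members that were higher and 2 that were lower, against 5.95% and 7.37% of all probe sets.

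Of the glutathione supply and regulator genes none was called in hippocampus. Gclm had 6.81, 6.89 and 6.94 in transgenic hippocampus, against 6.83, 6.83 and 6.82 in wild type hippocampus (0.05 ± 0.07). Gclc had 7.64, 7.72 and 7.67 in transgenic hippocampus, against 7.65, 7.56 and 7.61 in wild type hippocampus (0.07 ± 0.12). Both pairs overlapped. Nfe2l2 stood at 5.41, 5.60 and 5.68 in transgenic hippocampus, against 5.26, 5.42 and 5.31 in wild type hippocampus (0.23 ± 0.10, adjusted p = 0.972), and Keap1 at 6.51, 6.35 and 6.24 in transgenic hippocampus, against 6.55, 6.61 and 6.46 in wild type hippocampus (−0.17 ± 0.10). These pairs overlapped too.

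**Figure D4:**
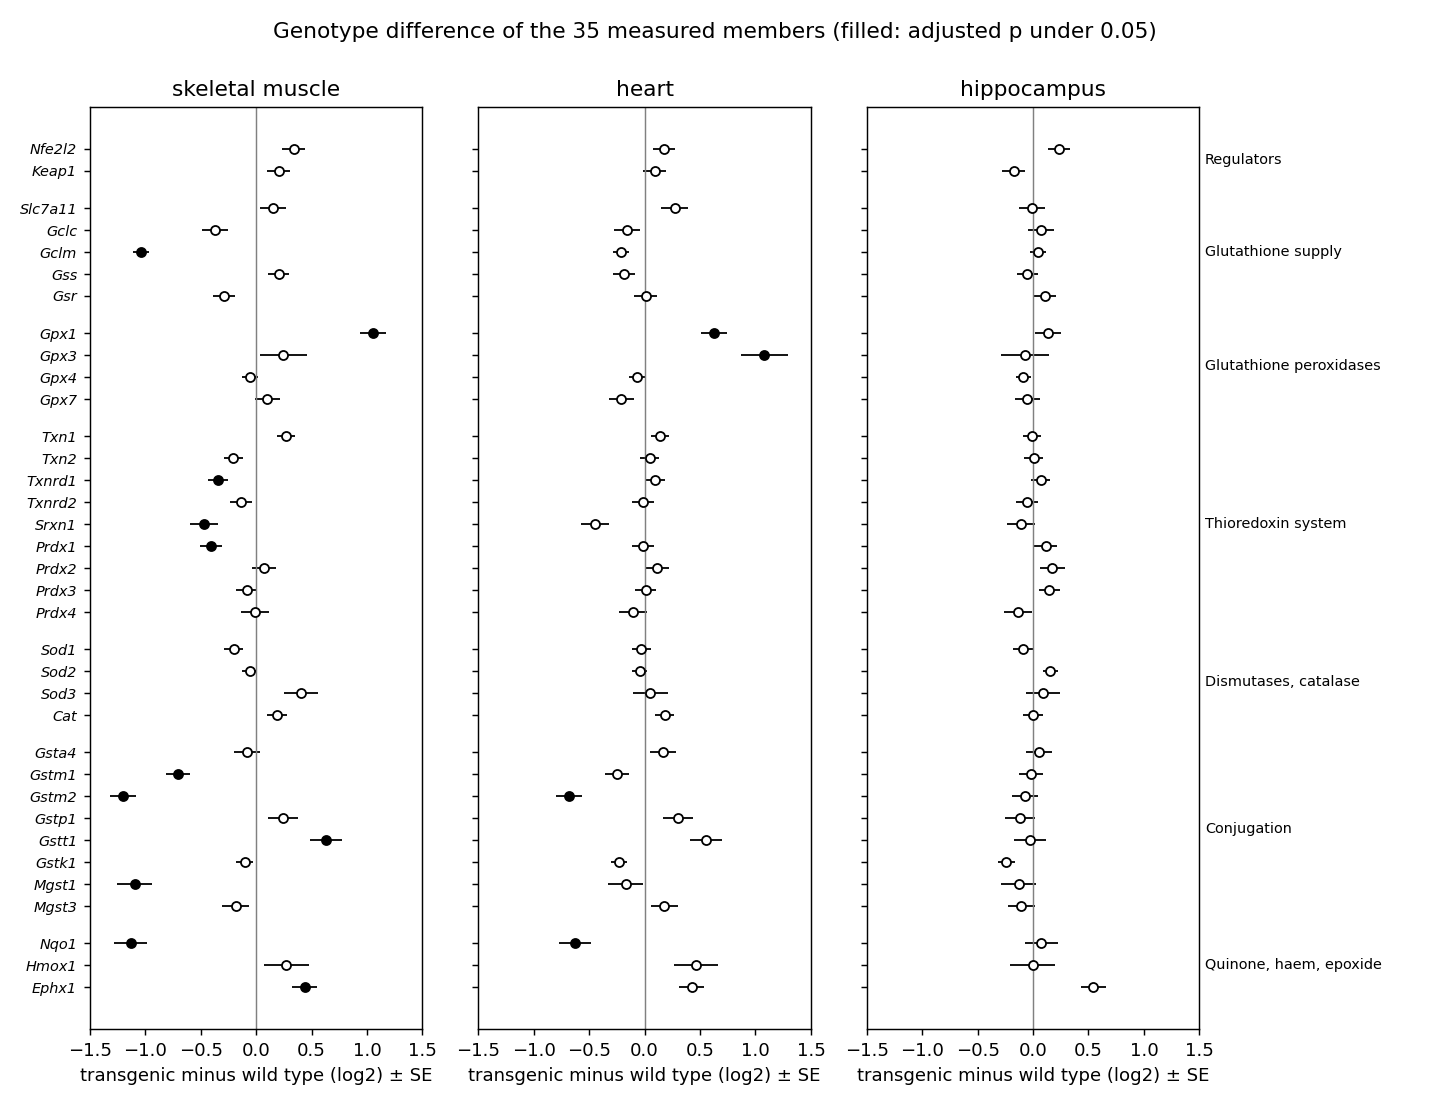
Genotype difference (log2, transgenic minus wild type, x axis) ± SE of the fit for the 35 measured members (y axis, grouped by role) in the 3 tissues. Filled points passed at an adjusted p under 0.05: 11 in skeletal muscle, 4 in heart and 0 in hippocampus.

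Whether a genotype difference itself differed between tissues was tested with the interaction of genotype and tissue. It passed for 6 of 35 members (17.1%), where 3.89% of all probe sets and 7.73% of the brighter genes passed. They were Gclm (adjusted p = 6.51e-05), Gstm2 (0.00348), Nqo1 (0.00955), Gpx1 (0.0151), Mgst1 (0.0296) and Gstm1 (0.0406). For all 6 the difference in hippocampus departed from that in muscle, higher in 5 and lower in 1, where 3.4% of all probe sets passed (1.88% higher, 1.52% lower) and 6.65% of the brighter genes. For Gclm the gap was 1.08 ± 0.10 (adjusted p = 3.14e-05) and for Nqo1 1.21 ± 0.21 (adjusted p = 0.00431), hippocampus minus muscle. For Gpx1 the gap was −0.92 ± 0.17 (adjusted p = 0.00654). The interaction of Gstm1 was no longer called in 12 of 18 cases in which 1 array was left out (adjusted p up to 0.1), and held without transgenic muscle array 1, wild type muscle array 1, transgenic heart array 2, wild type heart array 1 or 3 or wild type hippocampus array 3. That of Mgst1 was lost without transgenic muscle array 2 (0.0518), wild type muscle array 1 (0.0855) or 2 (0.0788), transgenic hippocampus array 1 (0.0571) or 2 (0.0577) or wild type hippocampus array 1 (0.0556) or 3 (0.055). After quantile normalization the interaction of Gstm1 was not called.

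Between heart and muscle, Gclm (0.82 ± 0.10, adjusted p = 4.24e-04) and Mgst1 (0.93 ± 0.22, adjusted p = 0.0413) passed, both higher for heart minus muscle. Over all probe sets 2.55% passed, 1.46% in that direction, and 5.09% of the brighter genes did. For Gpx3, the call in heart and its absence in muscle do not show a difference between those tissues (0.83 ± 0.30, adjusted p = 0.197). For Gstm2, Nqo1, Gpx1 and Gstm1 the heart and muscle differences were not shown to differ (adjusted p = 0.139 to 0.271). No member passed between hippocampus and heart by limma (7 had an unadjusted p under 0.05), where 0.582% of all probe sets did. The Mgst1 call between heart and muscle ended in 14 of 18 cases in which 1 array was left out (adjusted p up to 0.0936), and held without transgenic muscle array 1, wild type muscle array 3, wild type heart array 3 or wild type hippocampus array 2. It was also lost after quantile normalization (0.0522).

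Averaged over the 3 tissues, 11 of 35 members were called (31.4%, against 5.8% of all probe sets and 11.5% of the brighter genes), 4 higher and 7 lower, where 2.59% of all probe sets were higher and 3.21% lower. Nfe2l2 was higher by 0.25 ± 0.06 (adjusted p = 0.0186), with a positive difference in each tissue of 0.17 to 0.34. Ephx1 was higher by 0.47 ± 0.06 (adjusted p = 4.52e-04) and showed nearly the same difference in muscle, heart and hippocampus, with separate groups in all 3 tissues. Gstk1 was lower by 0.19 (SE 0.04, adjusted p = 0.0154), also with separate groups in all 3 tissues. The remaining calls were on Gpx1 and Gstt1 (higher) and on Gclm, Nqo1, Srxn1, Gstm1, Gstm2 and Mgst1 (lower). All 11 held when each of the 18 arrays was left out in turn.

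Levels across tissues are a description, because the array medians differed (2.44 to 2.49 in muscle, 2.61 to 2.63 in heart and 3.68 to 3.71 in hippocampus) and the sources used here do not say whether all arrays were normalized together. Within wild type arrays Sod1, Txn1 and Cat stood above 90% of probe sets in every tissue (99.7, 99.7 and 99.7 for Sod1, 99.1, 99.2 and 99.2 for Txn1, 98.3, 99.1 and 93.4 for Cat, as percentiles in muscle, heart and hippocampus). Slc7a11 averaged 1.61 ± 0.04 in wild type muscle, 1.41 ± 0.10 in wild type heart and 7.03 ± 0.02 in wild type hippocampus, and only in hippocampus lay above the array median. Gpx3 ran the other way, at 9.38 ± 0.13 in wild type muscle, 8.92 ± 0.16 in wild type heart and 4.51 ± 0.53 in wild type hippocampus. Nqo1 averaged 4.69 ± 0.23, 6.02 ± 0.10 and 2.67 ± 0.10 in wild type muscle, heart and hippocampus, and Mgst1 averaged 5.36 ± 0.23, 5.70 ± 0.12 and 3.42 ± 0.16. In hippocampus both lay below the array median. Prdx4 lay below the array median in all 3 tissues.

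**Figure D5:**
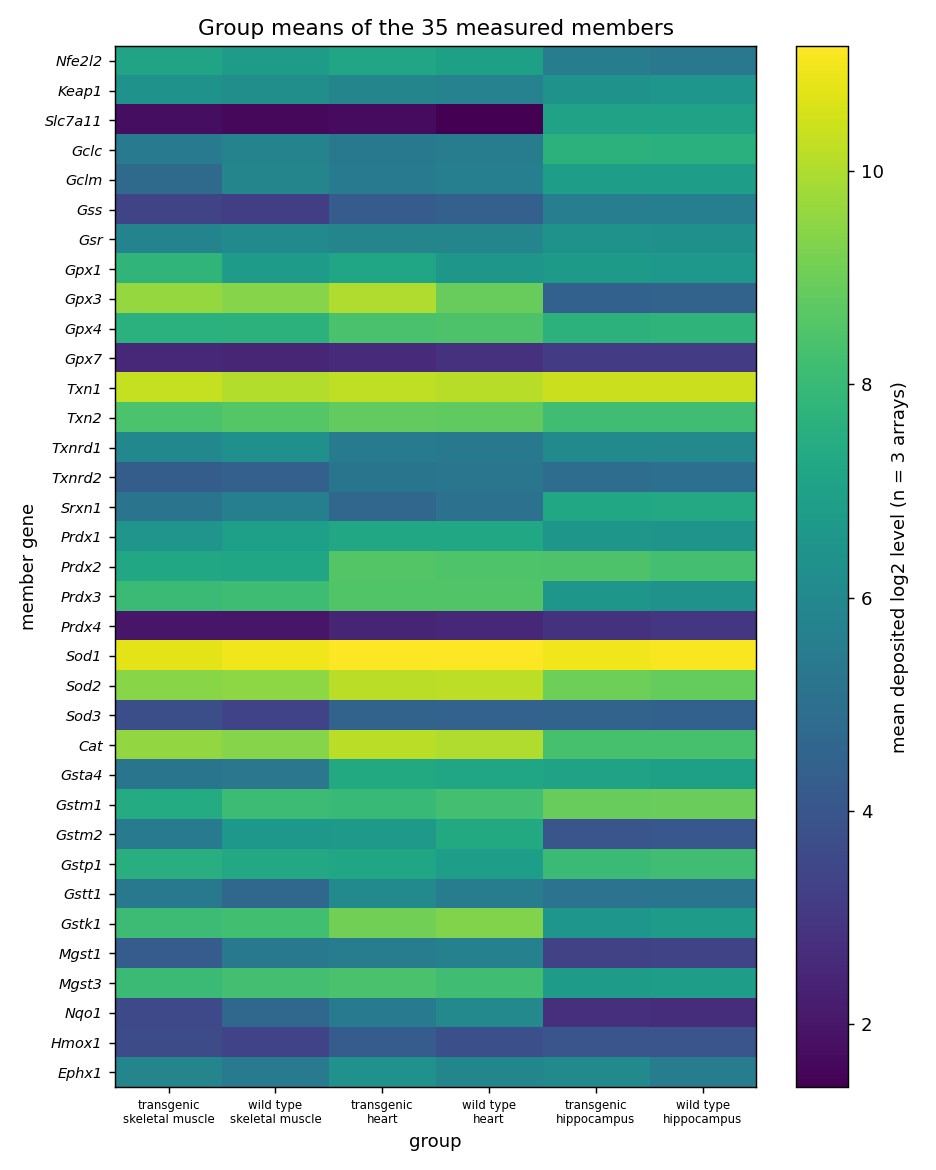
Mean deposited log2 level (colour, n = 3 arrays) of the 35 measured members (rows, grouped by role) in the 6 groups (columns). Colours are to be compared along a row, since levels of different probe sets are not on a common scale; Slc7a11 is high in both hippocampus groups and low in the other groups, and Gpx3 is the reverse.

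Further genes of the same pathways, 133 measured and none of them members, were called in 23.3% of cases in muscle (13 higher and 18 lower), beside 8.15% of all probe sets and 15.7% of the brighter genes. In heart 8.27% were called (5 higher and 6 lower), beside 3.19% and 6.05%. These lists too were chosen with earlier results of these data known, so the shares are descriptions. In hippocampus 0.0% were called by limma, where 5 had an unadjusted p under 0.05. Among further glutathione transferases (13 measured) Gsto1 rose by 0.74 ± 0.12 and Gstm7 fell by 0.90 ± 0.15 and Gstm3 fell by 0.45 ± 0.12 in muscle. In heart Gstm7 fell by 0.71 ± 0.15 and Gsto2 rose by 0.56 ± 0.12, so that another mu class gene was lower in both striated tissues. Among genes of glutathione breakdown, supply and export (16 measured) 3 fell in muscle. In heart 0 were called by limma, and 6 had an unadjusted p under 0.05. Those that fell in muscle were Oplah, the 5-oxoprolinase of glutathione turnover (−0.76 ± 0.11, adjusted p = 3.79e-04), the exporter gene Abcc4 (−0.51 ± 0.12) and Chac1, which degrades glutathione (−0.73 ± 0.21, adjusted p = 0.0401).

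Of 14 partners and regulators of NRF2, Maf (−0.40 ± 0.10) and Gsk3b (−0.27 ± 0.07) fell and Maff (0.36 ± 0.10) rose in muscle. In heart only Maf was called, and it was higher (0.40 ± 0.10, adjusted p = 0.0378). Of 15 genes of NADPH supply, which glutathione and thioredoxin reductases draw on, 3 rose and 3 fell in muscle. The cytosolic malic enzyme gene Me1 fell by 0.80 ± 0.10, the mitochondrial Me3 fell by 0.41 ± 0.07 and the mitochondrial Me2 rose by 0.92 ± 0.11. In heart Pgls, of the pentose phosphate pathway, fell by 1.20 ± 0.15 and H6pd fell by 0.63 ± 0.14.

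Of 15 glutaredoxin and further thioredoxin family genes, Txndc5 (0.64 ± 0.12) and Glrx2 (0.27 ± 0.07) rose and P4hb (−0.45 ± 0.09) and Nxn (−0.36 ± 0.09) fell in muscle. In heart Glrx2 rose (0.29 ± 0.07) and Nxn fell (−0.45 ± 0.09) as well, with Txnl4a higher and Pdia6 lower. Among 14 further peroxidases and selenoproteins Selenow fell in muscle (−0.60 ± 0.12) and 0 were called in heart by limma (2 had an unadjusted p under 0.05). Msrb3, a methionine sulfoxide reductase, fell by 0.65 ± 0.11 in muscle and was the only call among 9 genes of its list. Of 14 further detoxification genes linked to NRF2, Aldh2 (−0.85 ± 0.10) and Ces1d (−1.19 ± 0.19) fell and Nqo2 rose (0.38 ± 0.07) in muscle. Aldh2 (−0.61 ± 0.10) and Nqo2 (0.31 ± 0.07) were called the same way in heart.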

How the data were processed

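RNA of 18 samples had been labelled by the Affymetrix whole-transcript sense protocol and hybridised to arrays, per the labels' protocols. The authors deposited log2 values, 1 per probe set and array. The submitters' processing notes name RMA and R 2.10.0, and the sources used here give neither the chip definition nor filters. The platform annotation gave 1 symbol to 21153 of 35382 probe sets, several to 1867 and none to 12362. A gene with several probe sets was taken from the brightest over all arrays.

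All 35382 probe sets entered 1 model fitted with limma 3.58.1 under R 4.3.3, with 6 group means, 12 residual degrees of freedom and 2.67 from the prior, so that the SE of a gene reflects its spread in all tissues. Tests were two-sided, called at a Benjamini-Hochberg adjusted p under 0.05. The brightness floor is 2.86, the median of all group means, applied to a probe set's highest group mean. The replicate numbers were not taken as pairs in this model. Every array value was given for up to 10 called members in a tissue by adjusted p, for the 3 with the smallest p where fewer than 3 were called, for 6 by the interaction, and for Nfe2l2, Keap1, Gclc and Gclm. Up to 4 genes were named from each other list. The members and lists were chosen with earlier results of these data known. Promoter windows are RefSeq's, build GRCm38.p6.

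Alternatives were the arrays of the tissue alone, a replicate block, a random block, removal of dimmer probe sets, quantile normalization, median centring, an intensity trend with a robust prior, the mean of a gene's probe sets, a threshold of 0.01 and leaving out each array. Figures were drawn with matplotlib 3.10.9.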

Additional observations from a re-analysis of the deposited data

Results flagged for a closer look

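For 6 members the genotype difference itself differed between tissues by limma's test of that difference. Between hippocampus and skeletal muscle the gap (hippocampus minus muscle, each transgenic minus wild type) was 1.08 ± 0.10 for Gclm, 1.21 ± 0.21 for Nqo1, 1.13 ± 0.17 for Gstm2 (adjusted p = 0.0013), 0.97 ± 0.22 for Mgst1 (adjusted p = 0.0269), 0.69 ± 0.15 for Gstm1 (adjusted p = 0.0202) and −0.92 ± 0.17 for Gpx1. Between heart and muscle it was 0.82 ± 0.10 for Gclm and 0.93 ± 0.22 for Mgst1. In wild type hippocampus Nqo1 and Mgst1 lay below the array median and Gstm2 lay only 0.36 above it. The part of that low signal in the gaps of these genes was not tested.

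The Gstm1 gap between hippocampus and muscle did not pass without wild type muscle array 2 (adjusted p = 0.0516), transgenic hippocampus array 2 (0.0518) or 3 (0.0575) or wild type hippocampus array 1 (0.059), or after quantile normalization (0.0603). The Mgst1 gap between these tissues did not pass without wild type muscle array 1 (0.0691) or 2 (0.0632), transgenic hippocampus array 1 (0.0679) or 2 (0.0635) or wild type hippocampus array 1 (0.074) or 3 (0.064). Those of Gclm, Nqo1, Gstm2 and Gpx1 passed without each of the 18 arrays.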

How the results depend on the processing

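Of the named members' 58 differences 1 turned its sign under an alternative: that of Mgst1 for hippocampus minus heart, not called at 0.04, ran from −0.03 to 0.13 as arrays were left out. Over the named members' differences, 1022 of 1102 alternative values stayed on their side of the threshold, 75 lost a call and 5 gained one. The 1022 include values of differences that were not called to begin with and so had no call to lose. In muscle the count of lower members (8) was 5 at a threshold of 0.01 and 4 with only the muscle arrays. That of higher members (3) was 1 under both, and 5 without the dimmer probe sets or with an intensity trend. In heart the count of higher members (2) was 1 at a threshold of 0.01, 0 with only the heart arrays, and 4 without the dimmer probe sets, after quantile normalization or with an intensity trend. That of lower members (2) was 1 at a threshold of 0.01 and 0 with only the heart arrays. The mean difference called 7 at a threshold of 0.01 (11 at 0.05) and the interaction 3 (6 at 0.05). A fit to fewer arrays has fewer degrees of freedom, and for the other changes the cause was not tested.

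Leaving out 1 array gave 5 to 7 lower and 1 to 3 higher members in muscle, 1 to 2 lower and 1 to 4 higher in heart, 0 in hippocampus, 11 to 12 for the mean difference and 4 to 7 for the interaction. Same-numbered arrays of both genotypes in a tissue deviated from their group means with correlations of −0.031 to 0.0396. These values show no clear pairing by number, and with 3 arrays a group they cannot exclude it. With the replicate block 9 members were called in muscle (Srxn1 and Txnrd1 were not), 2 in heart (1 higher and 1 lower; Gpx3 and Nqo1 were not), 8 for the mean (Srxn1, Gstt1 and Gstk1 were not, at adjusted p = 0.0727, 0.0527 and 0.0648) and 3 for the interaction (Gstm1, Mgst1 and Nqo1 were not). The gaps of Gstm1 (0.058) and Mgst1 (0.0844) between hippocampus and muscle and of Mgst1 between heart and muscle (0.109) were not called with it either. With the number as a random block across tissues the calls for the mean (11) and the interaction (6) were the same genes. Levels below the array median limit what can be read of Slc7a11, Prdx4 and, in hippocampus, Nqo1, Mgst1 and Gpx7.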

Other observations

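Among 14 genes of oxidant sources 3 rose and 1 fell in muscle. Nos1, the neuronal nitric oxide synthase that skeletal muscle also expresses, averaged 8.43 ± 0.10 in transgenic muscle and 7.38 ± 0.18 in wild type muscle (SD, n = 3 each; 1.05 ± 0.11, adjusted p = 2.67e-05). Cybb and Cyba, the membrane subunits of the phagocyte NADPH oxidase, rose by 0.74 ± 0.17 and 0.54 ± 0.15, beside the macrophage marker Cd68 at 0.93 ± 0.16 in the same arrays. The other 7 of the 8 macrophage markers were not called in muscle, and the median difference of the 8 was 0.17. Maob, a monoamine oxidase that releases hydrogen peroxide, fell by 0.49 ± 0.09. In heart 0 of the 14 were called by limma and 4 had an unadjusted p under 0.05.

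Of 9 genes of haem and iron handling, the biliverdin reductase gene Blvra (0.48 ± 0.11) and the ferritin light chain gene Ftl1 (0.37 ± 0.10) rose and the ceruloplasmin gene Cp fell (−0.49 ± 0.12) in muscle. In heart 0 of the 9 were called by limma (1 with an unadjusted p under 0.05), with a median difference of −0.08, and in hippocampus 0 (2 with an unadjusted p under 0.05), with a median of 0.05.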
